A study of Schizosaccharomyces pombe with 4 samples.

Results

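The genes described here are the RNA interference (RNAi) machinery of the fission yeast Schizosaccharomyces pombe, compared between cells overexpressing the transcription factor Atf1 and cells carrying the empty vector. The members were 10 genes chosen by name: ago1, tas3, arb1, arb2, rdp1, hrr1, cid12, dcr1, ers1 and dsh1. A probe set, the group of short probes that reads 1 transcript, was named for 9 of them in the platform annotation, and these 9 are among the 2857 S. pombe genes tested. No probe set was named for dsh1, and it was not analysed here. The control arrays came from cells labelled wild type with the empty vector and the other arrays from the strain labelled Atf1-OP, with 2 biological replicates in each group. Biotin-labelled cRNA made from total RNA was read on Affymetrix arrays whose probe sets read either S. pombe or Saccharomyces cerevisiae, the budding yeast. The labels do not give the vector's promoter, the growth medium or the number of transformants, and nothing in them says that the replicates came from separate transformants, so p-values measure the spread between these arrays. For each gene that spread is pooled with a trend over all tested genes. Each array averages a whole culture, so a change in every cell and a change in a share of the cells cannot be told apart.

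In fission yeast, RNAi keeps the repeats around centromeres silent. The RNA-directed RNA polymerase complex (Rdp1, Hrr1 and Cid12) turns transcripts of the repeats into double-stranded RNA, and Dicer (Dcr1) cuts it into small RNAs. The Argonaute chaperone complex (Ago1, Arb1 and Arb2) holds duplex small RNAs, and the silencing complex RITS (Ago1, Tas3 and the chromodomain protein Chp1) carries the single-stranded guides back to the repeats, where the methyltransferase Clr4 methylates histone H3 at the lysine called H3K9.

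The fitted differences of the RNAi genes had both signs under Atf1 overexpression. The transcript of tas3 was called higher and those of dcr1 and rdp1 lower. The test was limma, with a two-sided adjusted p under 0.05, adjusted over all 2857 genes. Of the 9 measured genes, 6 did not pass. The only upward call, tas3, entered the test only through the arrays on which it was high. When all 4 arrays had to exceed background, 0 RNAi genes were called higher and 2 lower. Over all tested genes 21.2% were called, 10.2% higher and 11.0% lower, and the 1 higher and 2 lower of 9 RNAi genes are too few to set apart from these shares. The median log2 difference of the 9 genes, overexpression minus control, was -0.29, against -0.01 for all tested genes. It is the same with tas3 at its lower bound, and it was 0.062 in the values as deposited.

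The scale of the arrays bears on every value below. In the deposited log2 values the median S. pombe probe set of each array was 6.81 and 6.70 with the empty vector against 6.97 and 6.98 with Atf1-OP, and the median tested gene was 0.27 higher under overexpression. Arrays were therefore quantile normalized, and differences below are on that normalized log2 scale unless called deposited. Background, the 95th percentile of the S. cerevisiae probe sets, stood at 3.06 and 3.16 on the control arrays, higher than the 2.74 and 2.69 of the Atf1-OP arrays. Added poly-A control transcripts were higher under overexpression at their 5′ ends, with class means of 3.07 and 2.94 with the empty vector against 4.15 and 4.45 with Atf1-OP, and less so at their 3′ ends, with 7.999 and 7.993 against 8.18 and 8.34. The hybridization controls went the other way, with class means of 12.02 and 11.79 with the empty vector against 10.98 and 10.78 with Atf1-OP. Probe sets for S. pombe control transcripts read 5.79 and 5.75 against 5.98 and 6.16 at 5′ ends. At 3′ ends they read 8.73 and 8.57 against 8.65 and 8.88. The part of these controls in the results was not tested. The overexpressed gene itself, atf1, read 6.01 and 6.19 with the empty vector against 6.94 and 7.47 with Atf1-OP in the deposited values. After normalization its log2 difference was 0.83 ± 0.20 (SE; limma, adjusted p = 0.0273). That call was lost in a fit with no trend of variance with level (adjusted p = 0.0704). It was also lost when control replicate 1, control replicate 2 or overexpression replicate 2 was left out, with differences of 0.69, 0.97 and 0.56.

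Of the RITS genes, tas3 passed the test upward and ago1 and chp1 did not pass. Tas3 is the RITS subunit that joins Argonaute to Chp1. On the control arrays the tas3 probe set (SPBC83.03C) read 2.60 and 2.48 in the deposited values, below background on both. On the overexpression arrays it read 4.28 and 4.41, above background by 1.54 and 1.72. The groups did not overlap, as for 74.1% of all tested genes in the deposited values, 60.1% with overexpression higher. After normalization that share was 66.4%, with 32.0% higher. The closeness of the 2 control values is that of readings below background. Normalized levels averaged 2.58 ± 0.01 (SD, n = 2) with the empty vector and 4.08 ± 0.03 (SD, n = 2) with Atf1-OP. The fitted log2 difference was 1.51 ± 0.20 (SE; limma, adjusted p = 0.00578). Because the control was not above background, its size is known only as a bound: tas3 was at least 1.73-fold higher on the normalized scale and at least 2.34-fold higher in the deposited values. Since tas3 entered the test only through the arrays on which it was high, its passing under any setting is no support in itself. When all 4 arrays had to exceed background it was not tested, and with no filter on background the adjusted p was 0.00464.

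Ago1 is the only Argonaute protein of fission yeast and sits in both RITS and the chaperone complex. The ago1 probe set (SPCC736.11) read 7.11 and 6.94 with the empty vector against 6.98 and 6.81 with Atf1-OP in the deposited values, and these ranges overlap. After normalization it was 7.12 ± 0.05 (SD, n = 2) against 6.78 ± 0.14 (SD, n = 2), a log2 difference of -0.35 ± 0.13 (SE) that did not pass (limma, adjusted p = 0.0982). The third RITS gene, chp1, is no member here and belongs with the H3K9 methylation genes. Its log2 difference was 0.59 ± 0.22 (SE), with deposited values of 3.67 and 3.59 with the empty vector against 4.93 and 4.59 with Atf1-OP (limma, adjusted p = 0.0951). It passed in the deposited values (adjusted p = 0.00764), with median centring (adjusted p = 0.00876) and with arrays aligned on their background (adjusted p = 1.64e-06). The fitted differences of the RITS genes had both signs.

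**Figure D1:**
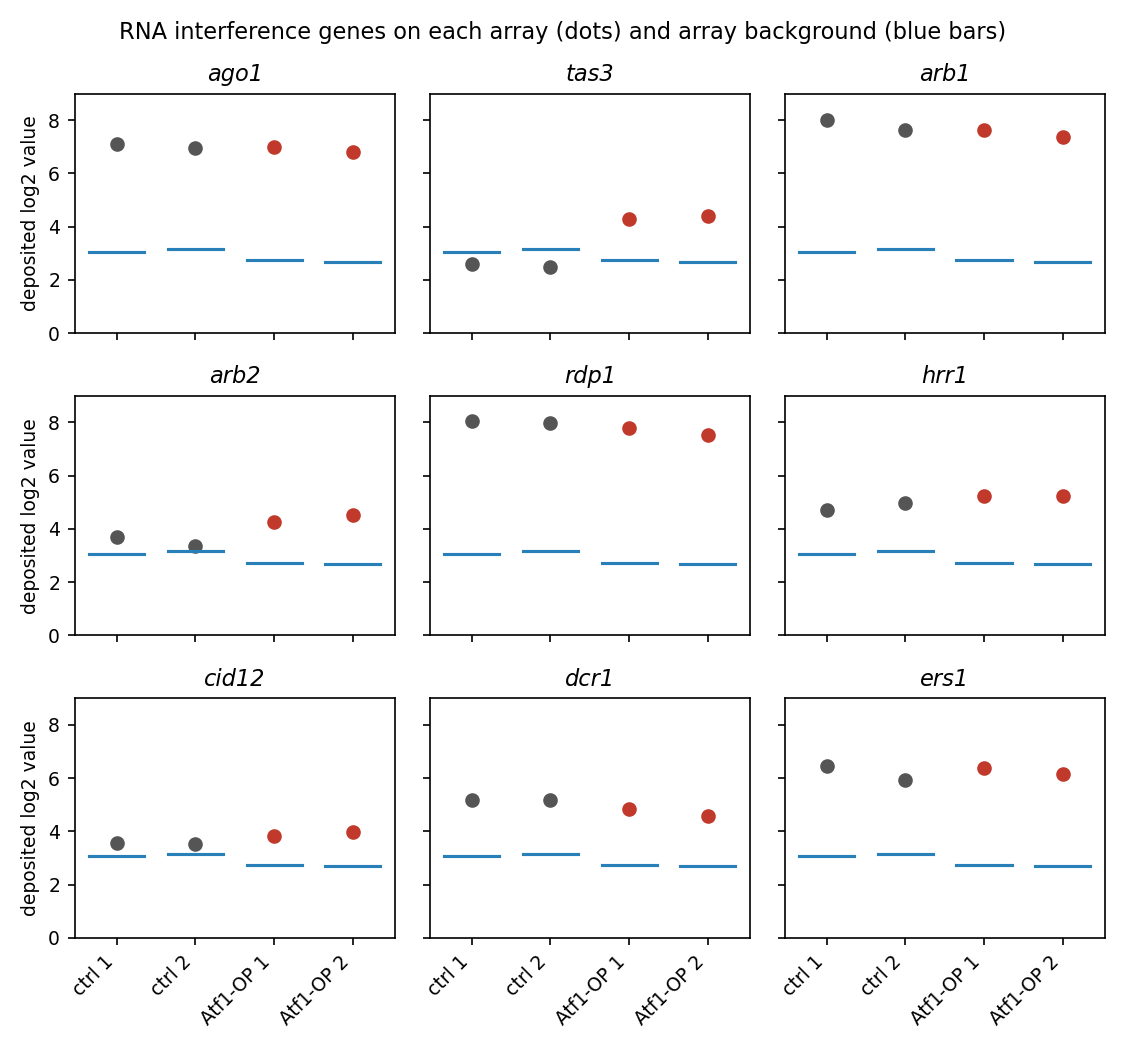
Deposited log2 value (vertical axis) of each RNAi gene on the 2 control (ctrl, grey) and 2 Atf1-overexpression (Atf1-OP, red) arrays, 1 panel a gene. Dots are single arrays and blue bars the background of the same array. The tas3 dots lie under the bar on both control arrays and above it on both overexpression arrays. For dcr1 and rdp1 dots and bars step down together.

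The Argonaute chaperone genes pointed in different directions, and neither passed. Arb1 inhibits the slicer activity of Ago1, and Arb2 is its partner. The arb1 probe set (SPAC140.03) read 8.01 and 7.61 with the empty vector against 7.62 and 7.35 with Atf1-OP in the deposited values, which overlap. The normalized values, 8.05 and 7.70 against 7.56 and 7.24, do not overlap. The log2 difference was -0.48 ± 0.16 (SE; limma, adjusted p = 0.0705). It passed with median centring at -0.54 (adjusted p = 0.0100), with gene length corrected at -0.46 (adjusted p = 0.0346) and with the replicate number as a block (adjusted p = 0.00304).

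The arb2 probe set (SPAC13G7.07) was dim in the control, at 3.71 and 3.36, no more than 0.64 above background on either array. Under overexpression it read 4.25 and 4.52, higher than both control arrays. After normalization the log2 difference was 0.38, with a 95% interval from -0.12 to 0.89 (limma, adjusted p = 0.236). With the deposited values it was 0.85 and passed (adjusted p = 0.0242), and with arrays aligned on their background it was 1.25 (adjusted p = 6.36e-05).

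Of the RNA-directed RNA polymerase complex, only the gene of the polymerase itself passed the test. The rdp1 probe set (SPAC6F12.09) read 8.07 and 7.999 with the empty vector against 7.79 and 7.53 with Atf1-OP in the deposited values. Both overexpression arrays lay below both control arrays. Normalized levels averaged 8.11 ± 0.0043 (SD, n = 2) against 7.58 ± 0.20 (SD, n = 2), 1.44-fold lower under overexpression. The log2 difference was -0.52 ± 0.12 (SE; limma, adjusted p = 0.0240). A fit without 1 array leaves 1 group with a single array. Its spread is then taken from the group that still has a pair, together with the trend over all tested genes. The call was lost when control replicate 1 was left out (adjusted p = 0.117), when control replicate 2 was (adjusted p = 0.136) and when overexpression replicate 2 was (adjusted p = 0.0609). A fit with no trend of variance with level lost it too (adjusted p = 0.0657).

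Hrr1 is the helicase of that complex and Cid12 its poly(A) polymerase-like subunit. The hrr1 probe set (SPCC1739.03) read 4.72 and 4.99 with the empty vector against 5.254 and 5.255 with Atf1-OP in the deposited values. These do not overlap, but the normalized values, 4.91 and 5.29 against 5.01 and 4.95, do. The normalized log2 difference was -0.12, with a 95% interval from -0.58 to 0.34 (limma, adjusted p = 0.698), and its sign turned to 0.18 with median centring and 0.40 in the deposited values. The cid12 probe set (SPCC663.12) read 3.545 and 3.515 with the empty vector against 3.82 and 3.96 with Atf1-OP. It stood 0.48 and 0.35 above background on the control arrays and 1.08 and 1.27 above it on the overexpression arrays. Its normalized log2 difference was -0.09, with a 95% interval from -0.55 to 0.37 (limma, adjusted p = 0.763), and 0.14 with median centring. Aligned on background, both passed upward, hrr1 at 0.80 (adjusted p = 0.00328) and cid12 at 0.76 (adjusted p = 0.0103), on a scale where the median of all tested genes was 0.67 higher. The sign of both thus depended on the scaling, and no direction is given for either.

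The Dicer gene had the largest fall among the 9 genes, and its size depended on the scaling. Dcr1 is the only Dicer of fission yeast. The dcr1 probe set (SPCC188.13C) read 5.19 and 5.19 with the empty vector against 4.85 and 4.59 with Atf1-OP in the deposited values, with both overexpression arrays below both controls. Normalized levels averaged 5.44 ± 0.09 (SD, n = 2) with the empty vector and 4.41 ± 0.26 (SD, n = 2) with Atf1-OP, 2.04-fold lower. The log2 difference was -1.03 ± 0.20 (SE; limma, adjusted p = 0.0149), rank 20 among the fitted falls of all 2857 genes.

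With median centring the dcr1 difference was -0.69 (adjusted p = 0.022) and in the deposited values -0.47 (adjusted p = 0.0887). Set against the background of its own array, dcr1 stood 2.13 and 2.02 above it in the control and 2.11 and 1.90 under overexpression, so the step of dcr1 and that of background were nearly the same in size. Aligned on background, the dcr1 difference was -0.07 (adjusted p = 0.792) and that of rdp1 was 0.027 (adjusted p = 0.877), while the median of all tested genes was then 0.67 higher under overexpression. Relative to the median tested gene, both lay lower under each of these scalings. In the deposited values rdp1 passed at -0.37 (adjusted p = 0.0475). The call of dcr1 was also lost when control replicate 2 was left out (adjusted p = 0.0673) or overexpression replicate 2 (adjusted p = 0.0852).

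Ers1 links the RNA-directed RNA polymerase complex to heterochromatin through the H3K9 reader Swi6. The ers1 probe set (SPCC1393.05) read 6.47 and 5.94 with the empty vector against 6.37 and 6.16 with Atf1-OP in the deposited values, and the overexpression arrays lay inside the control range. The normalized log2 difference was -0.29, with a 95% interval from -0.71 to 0.13 (limma, adjusted p = 0.276), and 0.062 in the deposited values.

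**Figure D2:**
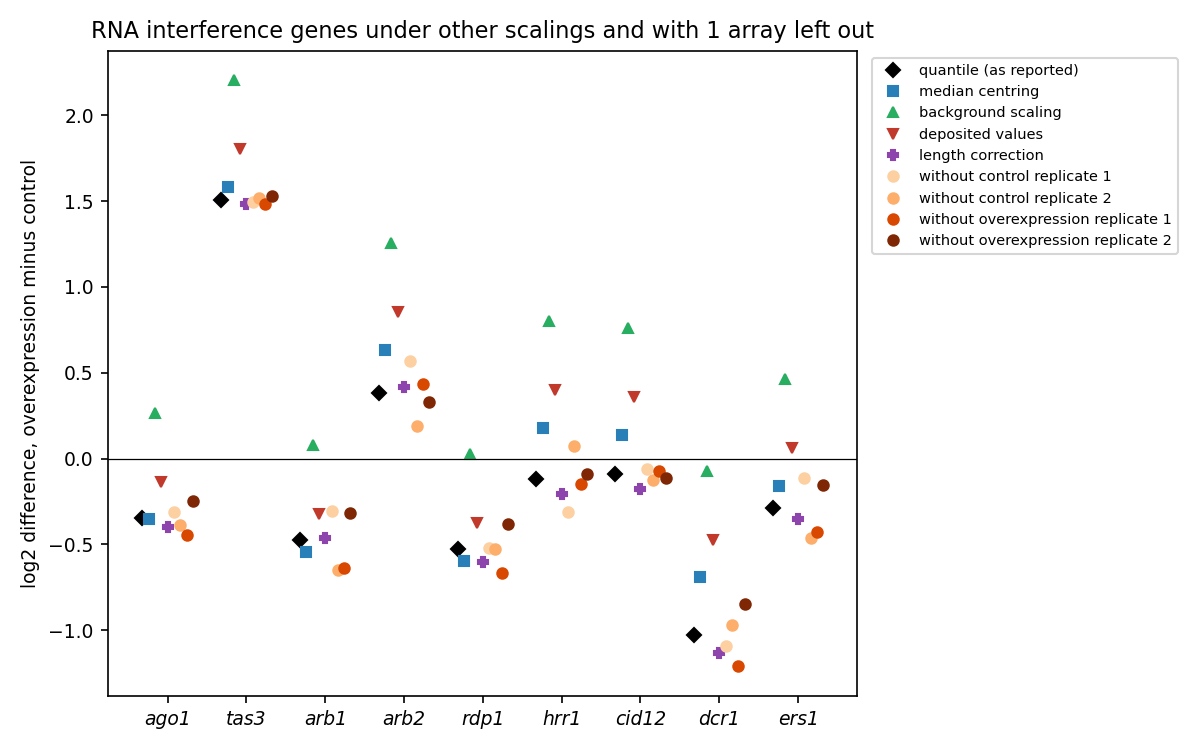
Log2 difference of each RNAi gene (vertical axis) under the reported scaling (black), other scalings, the length correction and with 1 array left out (circles). For tas3 and arb2 every plotted value is above 0, for dcr1 every one is below 0, and for hrr1, cid12 and ers1 the scalings fall on both sides of it. Of the values plotted for ago1, arb1 and rdp1, only the one aligned on background is above 0.

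In the deposited values the order of the genes was that of the normalized values but for hrr1 and cid12, which changed places. Relative to the median of all tested genes, the deposited differences of the 8 genes other than tas3 were 0.58 for arb2, 0.13 for hrr1, 0.092 for cid12, -0.21 for ers1, -0.40 for ago1, -0.59 for arb1, -0.64 for rdp1 and -0.74 for dcr1. In both, tas3 lay highest, also at its lower bound, with arb2 next, and rdp1 and dcr1 lay lowest. After normalization the groups did not overlap for 7 of the 9 genes, 2 higher and 5 lower, against 66.4% of all tested genes, 32.0% higher and 34.4% lower. In the deposited values they did not overlap for 6 of the 9, 4 higher and 2 lower, against 74.1% of all tested genes, 60.1% higher and 14.0% lower.

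The RNAi genes are long for this set of genes. Their lengths in the RefSeq annotation ran from 1312 bp for arb2 to 5609 bp for dcr1, with a median of 3386 bp, where the median tested gene had 1875 bp. Across the 2857 genes the log2 difference rose weakly with gene length (Spearman rho = 0.15, a description across genes, which are not replicates and share the 4 arrays). The 4 longest, dcr1, hrr1, cid12 and rdp1, had negative normalized differences, with the signs of hrr1 and cid12 open to the scaling as given above. After a correction for length, which was chosen after seeing the data, dcr1 stood at -1.13 and rdp1 at -0.60, and both passed.

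**Figure D3:**
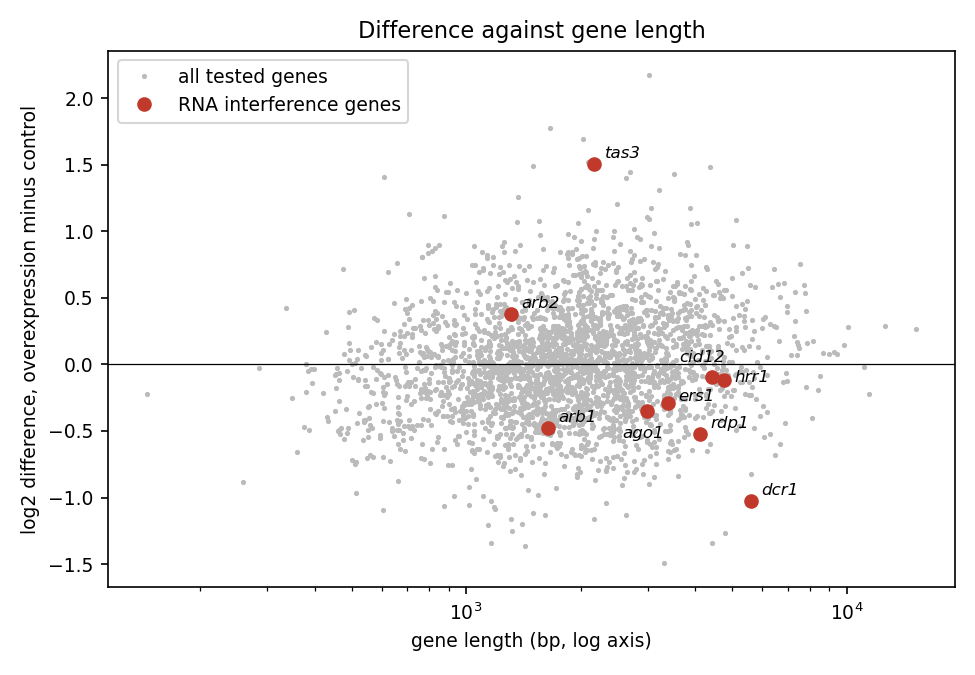
Log2 difference, overexpression minus control (vertical axis), against gene length in bp (horizontal log axis) for all 2857 tested genes (grey) and the 9 RNAi genes (red). The longest member, dcr1, is the lowest of them, and tas3, of 2174 bp, is among the highest of all genes by its fitted value, against a control below background.

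Of the 3 called genes, rdp1 and tas3 each had 1 tested neighbour, and after normalization its sign was opposite to theirs. Of the 18 neighbours of the 9 genes (the nearest protein-coding gene on each side), 11 were tested, and 2 of them rose, 2 fell and 7 did not pass, where 10.2% of all tested genes rose and 11.0% fell. Beside rdp1, which fell, ade3, a purine synthesis gene, rose by 0.36 ± 0.07 (SE) on the log2 scale (limma, adjusted p = 0.0183). The ade3 call was lost without trend (adjusted p = 0.0744) and when control replicate 1 or control replicate 2 was left out. Beside tas3, which rose, the ribosomal protein gene rpl4302 had a log2 difference of -0.21 ± 0.05 (SE; limma, adjusted p = 0.0308). The rpl4302 call was lost with median centring (adjusted p = 0.203) and in the deposited values, where the difference was -0.028 (adjusted p = 0.779). It was also lost without trend (adjusted p = 0.201) and with gene length corrected, at -0.054 (adjusted p = 0.595). Leaving out control replicate 1, control replicate 2 or overexpression replicate 2 lost it too. Aligned on background the rpl4302 difference was 0.37, the sign of tas3, and passed upward (limma, adjusted p = 0.000981). Neither neighbour of dcr1 was tested here. Beside arb2 and ago1, which did not pass, called neighbours stood at 0.62 and -0.90, each with the sign of its member.

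RNAi brings the Clr4 complex to the repeats, and 10 of the 11 listed genes of H3K9 methylation and its readers were tested. Of these, 2 fell, none rose and 8 missed the threshold. Their median log2 difference was -0.15. At an unadjusted p under 0.05 in limma, 3 of the 10 were higher and 3 lower, against 515 higher and 570 lower of all 2857 genes. The methyltransferase gene clr4 read 6.03 and 6.19 with the empty vector against 4.98 and 4.56 with Atf1-OP after normalization, 2.53-fold lower (log2 difference -1.34 ± 0.20 SE; limma, adjusted p = 0.00741). The gene cul4, named pcu4 in the platform annotation, encodes the cullin of the same complex. It read 6.93 and 6.70 with the empty vector against 6.10 and 5.96 with Atf1-OP, 1.72-fold lower (log2 difference -0.79 ± 0.15 SE; limma, adjusted p = 0.0148). The clr4 call held in the deposited values at -0.85 (adjusted p = 0.0133) and not aligned on background, at -0.45 (adjusted p = 0.0739). The cul4 call was lost in the deposited values, at -0.47 (adjusted p = 0.0588), and aligned on background, at -0.07 (adjusted p = 0.758). It was also lost on leaving out control replicate 1 (adjusted p = 0.0788) or overexpression replicate 2, when the adjusted p was 0.0739. The gene of Stc1, the adaptor between RITS and the Clr4 complex, stood at 0.03 (adjusted p = 0.924), and that of the reader Swi6 at 0.69 (adjusted p = 0.114). The share called lower, 2 of 10, compares with 11.0% of all tested genes.

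The nuclear exosome and its adaptors act beside RNAi on some of the same transcripts, and 9 of 14 listed genes of nuclear RNA decay were tested. Of these, 1 fell, none rose and 8 missed the threshold, which is near the 11.0% lower and 10.2% higher of all tested genes. Their median log2 difference was 0.07. At an unadjusted p under 0.05 in limma, 0 of the 9 were higher and 2 lower, against the same 515 and 570 of all genes. The gene that fell was mmi1, which encodes the YTH-family protein that marks meiotic transcripts for removal and is the neighbour of ago1. It read 5.42 and 5.93 with the empty vector against 4.95 and 4.61 with Atf1-OP after normalization (log2 difference -0.90 ± 0.23 SE; limma, adjusted p = 0.0315). The call of mmi1 was lost with median centring (adjusted p = 0.0572), with the deposited values (adjusted p = 0.207) and on leaving out control replicate 2 (adjusted p = 0.143) or either Atf1-OP array (adjusted p = 0.0747 and 0.203). The exosome nuclease genes rrp6, at 0.0060 (adjusted p = 0.978), and dis3, at 0.14 (adjusted p = 0.490), did not pass.

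**Figure D4:**
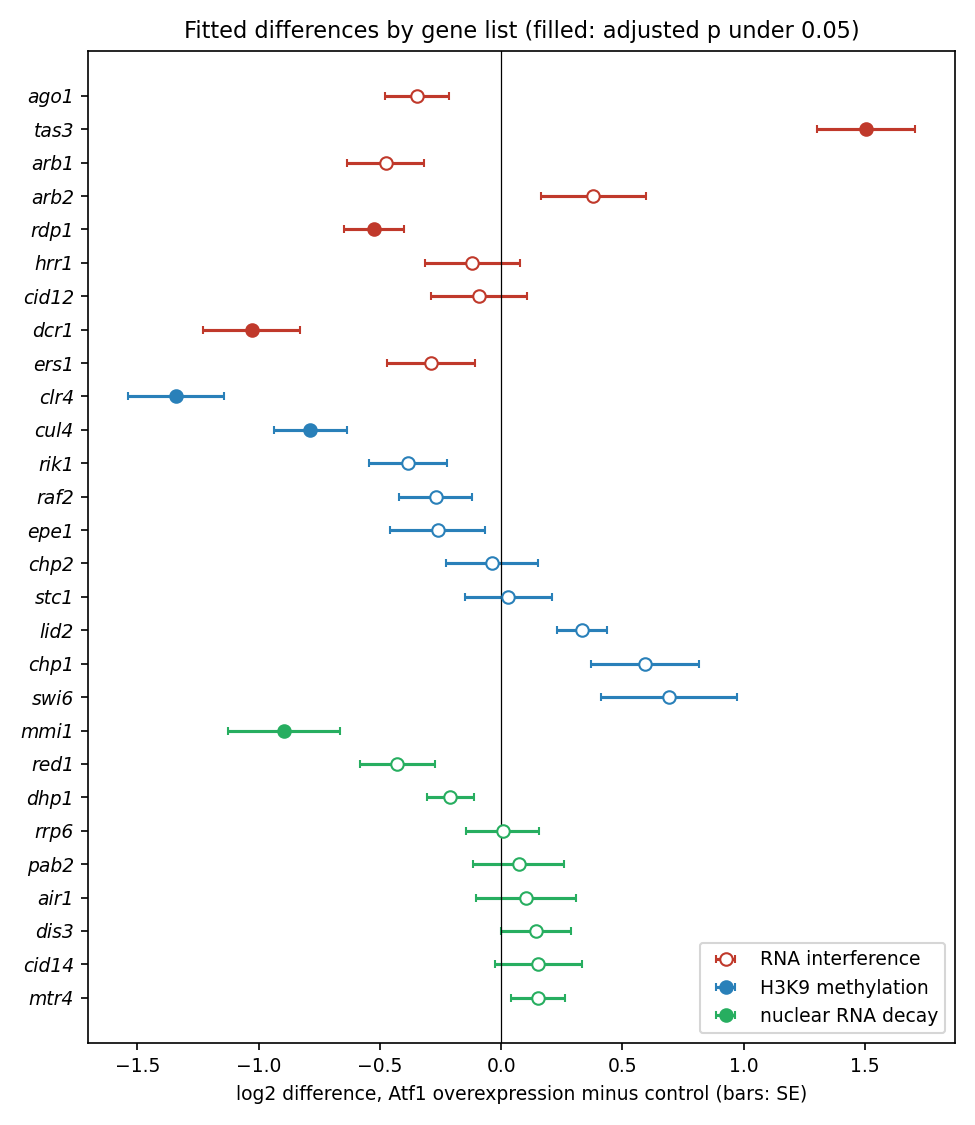
Fitted log2 difference, overexpression minus control (horizontal axis, bars are SE), for the 9 RNAi genes (red), the 10 tested H3K9 methylation genes (blue) and the 9 tested nuclear RNA decay genes (green). Filled points passed an adjusted p of 0.05: tas3 to the right, and dcr1, rdp1, clr4, cul4 and mmi1 to the left. The tas3 point is a fitted value against a control below background.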

How the data were processed

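The deposited table held 1 log2 value per probe set and array for 10928 probe sets, and these deposited log2 values ran from 1.46 to 14.0. How the authors corrected background, summarised and normalized them is not given in the sources used here. Per the labels' protocols, biotinylated cRNA was made by the standard Affymetrix procedure. The precision of every value is limited by 2 arrays a group.

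Probe sets were named through the platform annotation and RefSeq genes of assembly ASM294v3, from which names, lengths and gene order were taken. This named 2914 probe sets by gene ID and 3 by symbol as S. pombe genes. Another 20, which read several genes, were scaled with the rest but not named. Array medians differed by 0.28, above the tolerance of 0.1, so values were quantile normalized over these probe sets. The 2593 probe sets with S. cerevisiae symbols gave the background (their 95th percentile). Of 2899 genes (each by its brightest probe set), 2857 exceeded it on at least 2 of 4 arrays and were tested. All 9 RNAi genes with a probe set passed this filter, tas3 only through the overexpression arrays. The name rdp1 is also an older name of deb1, and ers1 of gus1, and capital ARB1 and ERS1 are S. cerevisiae genes. Members were therefore matched by gene ID.

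The comparison used lmFit and eBayes (with a trend) of limma 3.58.1, run in R 4.3.3. P-values were adjusted by Benjamini-Hochberg over all tested genes. A gene not above background on both arrays of a group is given as a bound, from the mean of the bright arrays and the mean background of the dim ones. The text names all members, atf1, chp1, listed genes that passed, and neighbours where both genes passed. The genes stc1, swi6, rrp6 and dis3 were added after their values were seen. Members and lists were chosen with earlier results of these data known. Alternatives were a replicate block, other scalings, other filters, other variance models, the mean of several probe sets, a pseudocount of 16, a threshold of 0.1 and leaving out each array after normalization. Alignment on background and the length correction were added after the data were seen. On simulated data the method recovered 34.2% of 1.5-fold and 72.4% of 2-fold changes, and 3.6% of its calls were false. The simulation shuffled the spreads among genes, so it did not keep the trend of variance with level. Same-numbered arrays did not deviate together (r = 0.038 across genes), so the numbers were not used as pairs. Python 3.11.15 and matplotlib 3.10.9 drew the figures.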

Additional observations from a re-analysis of the deposited data

How the results depend on the processing

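With 2 arrays a group, leaving out 1 array moved several of the counts. All tested genes called higher ranged from 63 to 300 and those called lower from 30 to 351. Some of these fits lost the calls of dcr1 and rdp1, as given above. The median log2 difference of the RNAi genes ranged from -0.43 to -0.15 in these fits. That of tas3 ranged from 1.48 to 1.53, which is no support in itself. It was tested in them only through the arrays on which it was high. The H3K9 methylation list had 0 to 1 higher and 1 to 2 lower, and the nuclear RNA decay list 0 to 1 lower (1 to 2 at an unadjusted p). With median centring 438 genes were called higher and 345 lower over all tested genes, the RNAi median was -0.16, 2 H3K9 methylation genes rose and 0 decay genes fell (2 at an unadjusted p). With the deposited values 903 genes were called higher and 116 lower, 2 RNAi genes rose and 1 fell, their median was 0.062, 3 H3K9 methylation genes rose and 1 fell, and 1 decay gene rose and 0 fell. Aligned on background, 2185 genes were called higher and 10 lower, 4 RNAi genes rose and 0 fell, their median was 0.46, 7 H3K9 methylation genes and 7 decay genes rose and 0 fell (0 in each list at an unadjusted p in limma). Without trend 95 genes were called higher and 70 lower, with 1 RNAi and 0 decay genes lower (4 and 2 at an unadjusted p). When all 4 arrays had to exceed background, tas3 was not tested and 0 RNAi genes rose. With the robust fit (313 genes higher and 332 lower) 1 H3K9 methylation gene rose, and with the replicate block 2 did. The replicate block, with 415 genes higher and 437 lower over all tested genes, called the same RNAi genes and arb1 as well. With the length correction (375 genes higher and 398 lower) 2 decay genes fell. At a threshold of 0.1, 432 genes were called higher and 500 lower, 4 RNAi genes and 2 decay genes fell and 2 H3K9 methylation genes rose. The causes were not tested. Signs turned for hrr1 (0.18 with median centring, 0.40 with the deposited values, 0.80 aligned on background, and from -0.31 to 0.073 with 1 array left out), for cid12 (0.14, 0.36 and 0.76 with the same 3 scalings) and for ers1 (0.062 with the deposited values and 0.46 aligned on background). Aligned on background they also turned for ago1 (0.27), rdp1 (0.027), arb1 (0.079), mmi1 (0.031) and rpl4302 (0.37).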
